A study of Homo sapiens with 12 samples.

Results

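Some genes had ac4C peaks both in wild type and after NAT10 knockdown, with some regions marked only in knockdown and others only in wild type. Such switching genes had a peak in every one of 4 peak lists, at least 1 region that both knockdown lists marked and no wild-type list did (a knockdown-only region), and at least 1 that both wild-type lists marked and no knockdown list did (a wild-type-only region). Regions were made by merging overlapping peaks of the 4 lists within a gene identifier and strand, after peaks over 1000 nt were set aside. The rule found 695 switching genes among 3196 genes with a peak in all 4 lists, which is 21.7%, and among 10992 genes with any peak in the series. They held 1024 knockdown-only and 1281 wild-type-only regions, together 2305 of the 77967 regions of the series. In the 3196 genes, 42.0% had a knockdown-only region and 52.5% a wild-type-only region, and 4.80% of regions were knockdown-only, 7.42% wild-type-only and 3.17% kept, that is, with a peak in all 4 lists. These values describe the rule's own choice and carry no test.

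The knockdown cells were H1 human embryonic stem cells, an established line, transduced with a lentivirus that carried a short hairpin RNA against NAT10 together with GFP. Cells positive for GFP were enriched after 48 h of culture and expanded under puromycin selection at 0.5 ug per ml. They were compared with wild-type H1 cells, for which the labels give neither transduction nor selection, and no control hairpin, so the virus, the selection and the loss of NAT10 cannot be told apart. Of 12 libraries, the 4 immunoprecipitates (2 per genotype, 1 peak list each) entered here, and the inputs and IgG controls were not analysed. A change in the amount of an RNA and a change in its acetylation therefore cannot be told apart.

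N4-acetylcytidine, or ac4C, is a cytidine that carries an acetyl group on its base. NAT10 is the RNA acetyltransferase known to write it in ribosomal and transfer RNA, and it has been described in messenger RNA, where it has been linked to RNA stability and translation. In ac4C-RIP-seq, RNA fragments bound by an antibody to ac4C are sequenced, and a peak is a stretch in which such fragments pile up, so it places the modification no more finely than the fragment, here about 200 nt.

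The knockdown lists held 27787 and 36476 peaks and the wild-type lists 37988 and 38150, and read depth is unknown. Peaks of at most 1000 nt numbered 20755 and 27410 in knockdown and 29313 and 28958 in wild type. NAT10 itself had 0 peaks in both knockdown lists, against 7 and 9 in the wild-type lists. All 14 markers of human embryonic stem cells had a peak somewhere, with 60 and 69 peaks in the knockdown lists and 109 and 104 in the wild-type lists, and 9 of them were in all lists. The markers of endoderm, mesoderm and trophectoderm were at 0 in every list, and of those of ectoderm only NES had peaks, 9 and 4 in knockdown and 11 and 4 in wild type. DNMT3B and PRDM14 were at 0 in both knockdown lists. Of the fibroblast markers, COL1A1, COL1A2 and THY1 had peaks in every list, 15 and 24 in all in knockdown and 25 and 17 in wild type. THY1 is also on the pluripotency list used below, so its peaks do not tell these cell types apart. The part of cell state in these results was not tested.

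A subset of knockdown-only regions lay over annotated transcript starts, and the first 30 transcribed bases of several of these genes are printed here because the first 10% of the gene is where the genotypes differed most. The sequences are RefSeq's, build GRCh38.p14, on the strand of the gene and 5′ to 3′, with every cytidine, the base that can carry ac4C, in capitals. Shown are the highest-ranked regions of each kind by their lower score percentile in the 2 lists, among regions that covered the first 30 bases from base 5 or earlier, with RAN added, a choice made after values were seen. The first 6 lay under knockdown-only regions and the last 5 under wild-type-only regions.
MYL6 (a myosin light chain, knockdown-only, chr12:56158359-56158388, plus strand): gCCattaCtgCaggaaaaggtCCCggagag
PRKAR1A (a regulatory subunit of protein kinase A, knockdown-only, chr17:68515394-68515423, plus strand): agaaCCatggagtCtggCagtaCCgCCgCC
KPNA2 (an importin, knockdown-only, chr17:68035735-68035764, plus strand): aCaCggtCtttgagCtgagtCgaggtggaC
RPS15 (a small-subunit ribosomal protein, knockdown-only, chr19:1438396-1438425, plus strand): CaaagCgatCtCttCtgaggatCCggCaag
RPL27A (a large-subunit ribosomal protein, knockdown-only, chr11:8682792-8682821, plus strand): CtttttCgtCtgggCtgCCaaCatggtagg
PCDHB5 (a protocadherin, knockdown-only, chr5:141135206-141135235, plus strand): aagagtgtggatagtgggCtCtgCggataa
JARID2 (a component of Polycomb complexes, wild-type-only, chr6:15246069-15246098, plus strand): ggagttgaCtCttCtgCtCgCaCtgCtgCt
RPL17-C18orf32 (a read-through transcript, wild-type-only, chr18:49491555-49491584, minus strand): gtgatCtgtgaaaatggttCgCtattCaCt
RAN (a GTPase of nuclear transport, wild-type-only, chr12:130872066-130872095, plus strand): gaattgCgCttCCgCCatCtttCCagCCtC
HMGN1 (a nucleosome-binding protein, wild-type-only, chr21:39349059-39349088, minus strand): atCCggttCtCCCaCCgCCCCCgCtgtggg
TBCD (a tubulin-folding cofactor, wild-type-only, chr17:82752492-82752521, plus strand): gCCggtgCgCggtCCCgCgggCCgtggtgg
The 6 knockdown-only windows held 7, 10, 6, 8, 7 and 3 cytidines in 30 bases, and the 5 wild-type-only windows 9, 5, 12, 14 and 10, so the 2 sets overlap. Over all windows of 50 bases, the median share of cytidine was 28% under the 100 knockdown-only regions at a start and 32% under the 33 wild-type-only ones, against 28% over all 912 starts of switching genes.

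Scores are the authors' and rank peaks only within a list, so each is given as a percentile of its list, where 100 is the highest. Coordinates are those of hg38, counted from 1. Genes were ranked by the pair score, the lower percentile of the best region of each kind, and RAN, DDX5, RPL17-C18orf32, DDX3X, RPS2, MFAP2, ZNF207, RAD21 and TPM1 were among the 10 highest.

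RAN, the GTPase that gives nuclear transport its direction, was among the highest by pair score, and its knockdown-only region lay on the 3′ side. Its 1 knockdown-only region, chr12:130872812-130872936, plus strand, stood at percentiles 99.8 and 99.8 of the knockdown lists. Its wild-type-only regions lay 5′ of it, 1 over the transcript start at percentiles 90.5 and 31.0 of the wild-type lists and 1 at chr12:130872562-130872636 at 98.2 and 99.9. Only 175 nt separated this second region from the knockdown-only one, less than the length of 1 fragment. Peaks of RAN numbered 2 and 6 in the knockdown lists and 7 and 3 in the wild-type lists.

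Among the helicases, DDX5 interleaved its regions and DDX3X did not. DDX5 had 3 knockdown-only regions between chr17:64502429 and 64503103, minus strand, the strongest at percentiles 96.3 and 96.7 of the knockdown lists. They were flanked by 2 wild-type-only regions, chr17:64504654-64504853 at percentiles 99.5 and 98.4 and chr17:64500529-64500853 at 93.4 and 98.6 of the wild-type lists. DDX5 also kept 4 regions in all lists. DDX3X had 1 knockdown-only region, chrX:41341465-41341614, plus strand, at percentiles 97.8 and 95.2 of the knockdown lists, and 8 wild-type-only regions, all 3′ of it. The strongest of these 8, chrX:41347633-41347832, stood at 99.7 and 98.0 of the wild-type lists. The number of DDX3X peaks also differed, with 1 and 7 in the knockdown lists and 16 and 19 in the wild-type lists.

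RPS2, a protein of the small ribosomal subunit, held its knockdown-only and wild-type-only regions at opposite ends of a short gene. The knockdown-only region, chr16:1964803-1964827, minus strand, lay at the annotated 5′ end of the gene, at percentiles 95.2 and 99.7 of the knockdown lists. On its 3′ side, 3 wild-type-only regions ended at most 175 nt before the annotated gene end, and the strongest, chr16:1962133-1962182, stood at 98.5 and 99.3 of the wild-type lists. RPS2 carried 3 and 4 peaks in the knockdown lists and 4 and 5 in the wild-type lists. ZNF207, a zinc finger protein that binds spindle microtubules, had 1 knockdown-only region at chr17:32360928-32360977, plus strand, at percentiles 92.5 and 95.9, and 5 wild-type-only regions 3′ of it, the first at chr17:32365416-32365490 at 91.5 and 95.5. It carried 5 and 2 peaks in the knockdown lists and 14 and 9 in the wild-type lists.

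The other genes with the highest pair scores split between the orders. MFAP2, a protein of extracellular microfibrils, had its 3 knockdown-only regions 3′ of its 1 wild-type-only region and 175 nt from it. The first of the 3, chr1:16976874-16976923, minus strand, stood at percentiles 99.94 and 99.97 of the knockdown lists, and the wild-type-only region, chr1:16977099-16977198, at 96.8 and 94.2 of the wild-type lists. RAD21, a subunit of the cohesin ring, had 1 region of each kind, knockdown-only at 91.4 and 94.5 and, 3650 nt further 3′, wild-type-only at 95.5 and 94.9. TPM1, which encodes an actin-binding tropomyosin, placed its knockdown-only region, at 95.4 and 94.3, among 5 wild-type-only regions. RPL17-C18orf32, a transcript read through from a ribosomal protein gene into its neighbour, held 2 knockdown-only and 3 wild-type-only regions in interleaved order. RPL17 overlaps it, so these peaks may belong to either gene.

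**Figure D1:**
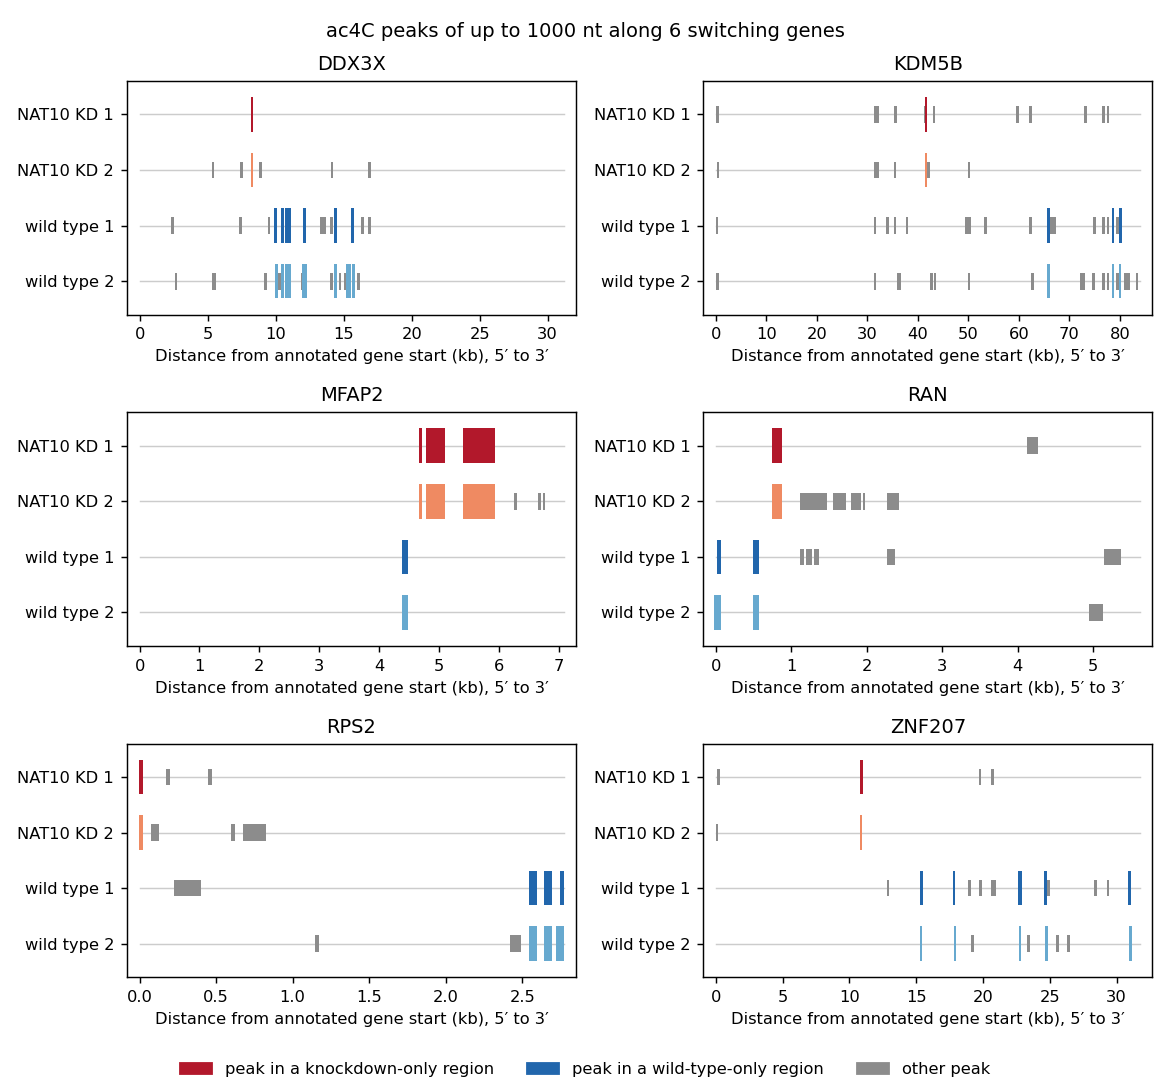
Peaks of at most 1000 nt in each of the 4 lists along 6 switching genes, by distance from the annotated gene start in kb. Tall red bars (knockdown lists 1 and 2, dark and light) mark knockdown-only regions, tall blue bars (wild-type lists 1 and 2, dark and light) wild-type-only regions and short grey bars all other peaks, with very narrow peaks drawn at a minimum width. In DDX3X, KDM5B, RPS2 and ZNF207 the red bars lie 5′ of all blue bars, and in MFAP2 and RAN they lie 3′ of them.

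Along the gene, knockdown-only regions lay 5′ of wild-type-only regions more often than 3′. All knockdown-only regions of a gene lay 5′ of all its wild-type-only regions in 362 of 695 genes (52.1%, exact 95% interval 48.3 to 55.9%), and all lay 3′ in 183 genes (26.3%, 23.1 to 29.8%). In the other 150 genes (21.6%) the kinds were interleaved. With 1 region of each kind, where no interleaving can occur, the knockdown-only region was 5′ in 155 of 257 genes (60.3%, 54.0 to 66.3%). Over 1934 pairs of regions within genes, it was 5′ in 1164 (60.2%). Intervals cover counting error only, and genes share the same 4 libraries, so the shares are not tested. In the upper 50% of each list by score, 152 genes had the 5′ order and 55 the 3′ order, a ratio of 2.76 against 1.98 in the full lists. Without 1 library the 5′ order took 32.5% of genes against 22.1% for the 3′ order (without knockdown 1), 36.0 against 23.9% (without knockdown 2), 35.3 against 22.1% (without wild type 1) and 42.1 against 18.1% (without wild type 2), with more genes interleaved.

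Examples of the 5′ order with 1 region of each kind span short and long distances. ANP32A, a histone chaperone, had its knockdown-only region 17 nt after the annotated gene start, chr15:68820729-68820878, minus strand, at percentiles 82.6 and 95.0, and its wild-type-only region 425 nt before the annotated end, at 66.1 and 72.8. CAPRIN1, an RNA-binding protein of stress granules, had them 4420 nt apart, at 98.5 and 90.4 for the knockdown-only and 85.5 and 81.4 for the wild-type-only region. In POLR1D, a subunit shared by RNA polymerases I and III, they were 706 nt apart and both near the start of the gene. In CTNNBL1, a protein associated with the spliceosome, 51618 nt lay between a knockdown-only region 25 nt after the gene start and the wild-type-only region.

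**Figure D2:**
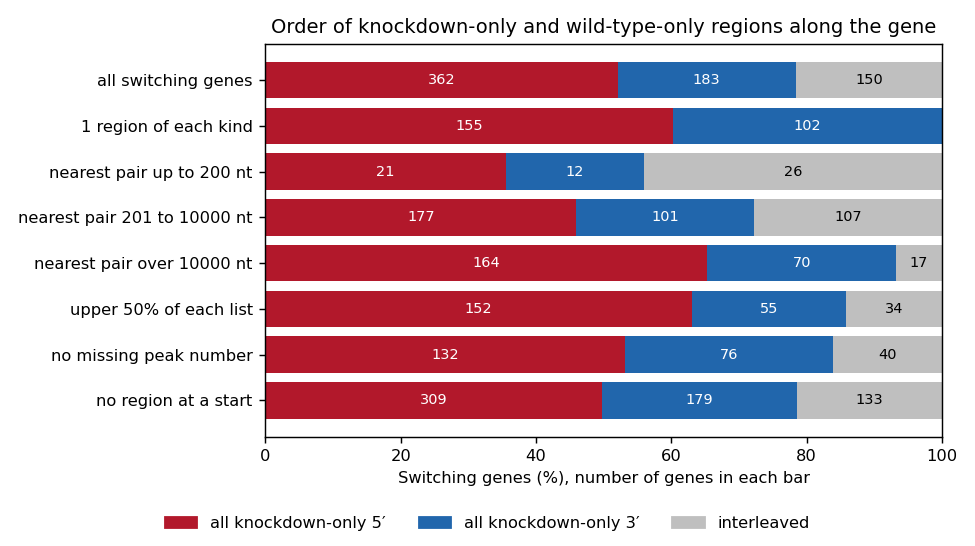
Share of switching genes in each order, with the number of genes printed in the bars, for all switching genes, for those with 1 region of each kind, by distance between the nearest pair, and under stricter definitions. Red marks genes with all knockdown-only regions 5′ of all wild-type-only regions, blue the opposite order and grey interleaved genes. Red exceeds blue in every bar, from 21 against 12 genes within 200 nt to 164 against 70 genes beyond 10000 nt.

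The nearest knockdown-only and wild-type-only regions of a gene were a median of 4818 nt apart on the genome (95% interval of the median 4063 to 5785 nt, quartiles 920 and 16761.5 nt). In 59 genes (8.49%) they were at most 200 nt apart, about the length of a fragment, and in 183 (26.3%) at most 1000 nt. In 8 genes they touched end to end, and CS, the citrate synthase of mitochondria, PRKDC, the DNA-dependent protein kinase, and MAP4K4 were among these, named after their values were seen. Within 200 nt, 21 genes had the 5′ order, 12 the 3′ order and 26 were interleaved. Beyond 10000 nt, the numbers were 164, 70 and 17. The largest distance, 1177217 nt, was in GPC6, a cell-surface proteoglycan. Without 1 library, so that a single list stood for its genotype, the median distance was 1840 nt (without knockdown 1), 2125 nt (without knockdown 2), 1735 nt (without wild type 1) and 2027 nt (without wild type 2). The number of switching genes was then 2035, 1881, 1873 and 1688. For that genotype a region had to be present in, or absent from, only 1 list where it had been both. A gene also needed a peak in fewer lists.

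Positions per library showed the same shift. Between the first and last listed peak of a gene (0 to 100%), the median position of peaks in these regions was 57.6 and 55.2% for knockdown, against 76.7 and 76.6% for wild type. Values from the same regions are close by construction, so the spread between the lists of a genotype is narrower than for independent peaks, and no test is given for values read from these regions. The difference was -20.2 points (means 56.4 ± 1.75 in knockdown and 76.7 ± 0.0887 in wild type, SD, n = 2 each). From annotated gene start to end, medians were 63.1 and 61.7% in knockdown and 77.2 and 76.3% in wild type. The difference between first and last peak was -7.78 points without knockdown 1, -9.47 without knockdown 2, -15.3 without wild type 1 and -23.4 without wild type 2.

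The shift was seen at both ends of the gene. The first 10% of the annotated gene held 22.3 and 22.8% of the peaks of these regions in the knockdown lists and 9.96 and 10.4% in the wild-type lists. The last 10% held 26.3 and 25.8% in knockdown and 35.2 and 34.6% in wild type. Between 70 and 80% of its length the shares were 6.28 and 6.38% in knockdown and 10.8 and 10.4% in wild type. From 10 to 70% and from 80 to 90% of the length they lay within 2 points of each other.

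**Figure D3:**
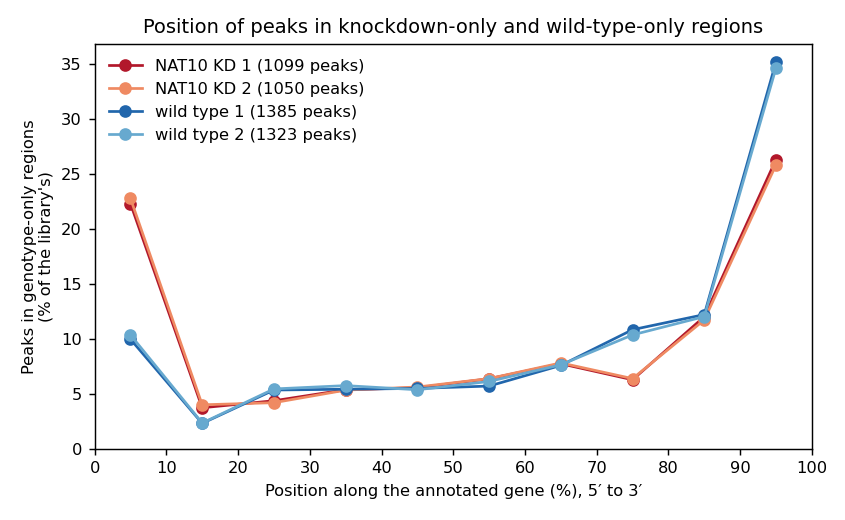
Share of each library's peaks in knockdown-only (red lines) or wild-type-only (blue lines) regions of switching genes that fell in each 10% of the annotated gene, plotted at its middle, 5′ to 3′. The knockdown lines lie above the wild-type lines in the first 10% (22.3 and 22.8% against 9.96 and 10.4%) and below them in the last (26.3 and 25.8% against 35.2 and 34.6%).

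A shift in the same direction was seen in genes that did not switch. In the other genes of all lists, which held genotype-only regions of at most 1 kind, such peaks had median positions of 62.9 and 61.8% of the annotated gene in knockdown and 79.1 and 78.1% in wild type. Set against those genes, the switching genes differed by 0.15 and -0.04 points in the knockdown lists and by -1.91 and -1.77 points in the wild-type lists, so the shift itself differed by 1.89 points. All peaks of at most 1000 nt in the series had medians of 70.9 and 73.7% in knockdown and 79.7 and 77.9% in wild type. The other peaks of the switching genes had medians of 73.5 and 77.8% in knockdown and 77.4 and 76.9% in wild type, which overlap (two-sided exact permutation p = 1, where 2 libraries in each group allow no p below 0.33). In their 307 kept regions, found in 209 of the 695 genes, the medians were 70.5 and 71.6% in knockdown and 69.0 and 70.7% in wild type.

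Knockdown-only regions more often reached an annotated transcript start than wild-type-only regions. A region was counted at a start if it overlapped the first 50 transcribed bases of any RefSeq start of its gene, and starts were matched for 573 of the 695 genes. By this count, 100 of 833 knockdown-only regions (12.0%, 9.88 to 14.4%) and 33 of 1043 wild-type-only regions (3.16%, 2.19 to 4.41%) lay at a start. Per library, 9.07 and 11.3% of the peaks in these regions did so in the knockdown lists and 2.22 and 2.85% in the wild-type lists (difference 7.65 points). No gene had both kinds at a start. Kept regions of switching genes lay at a start in 13 of 264 cases (4.92%).

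Genes that did not switch gave similar shares at starts. In the other genes of all lists, 99 of 797 knockdown-only regions (12.4%) and 49 of 1519 wild-type-only regions (3.23%) lay at a start. The difference between switching and other genes was -0.71 and 0.13 points in the knockdown lists and -0.11 and 0.23 points in the wild-type lists. Among all peaks of at most 1000 nt, the shares were 4.16 and 3.85% in knockdown and 1.42 and 2.42% in wild type. Leaving out the regions at a start, a choice made after the data were seen, left 621 switching genes, of which 309 had the 5′ order and 179 the 3′ order.

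**Figure D4:**
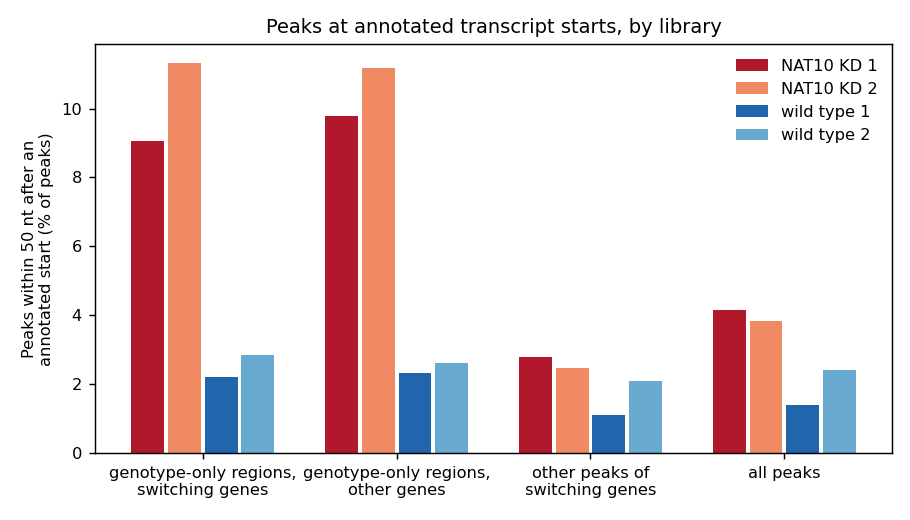
Share of peaks that overlapped the first 50 transcribed bases of an annotated start, by library, for genotype-only regions of switching genes, genotype-only regions of other genes of all lists, the other peaks of switching genes and all peaks of at most 1000 nt. Both knockdown libraries lie above both wild-type libraries in each set, at 9.07 and 11.3% against 2.22 and 2.85% in the genotype-only regions of switching genes.

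Of the 573 switching genes with a matched start, 98 (17.1%, 14.1 to 20.4%) had a knockdown-only region at one. They included 6 ribosomal protein genes, RPS15, RPL27A, RPL22, RPL21, RPS24 and RPL37A, of the 7 with a matched start among the 11 that switched, a count read after the values were seen and not tested. The region of RPS15 stood at percentiles 97.2 and 96.5 of the knockdown lists and that of RPL27A at 98.6 and 92.2. RPL36 was the 1 ribosomal protein gene with a wild-type-only region at a start. Splicing factors gave 5, SF3B4, ACIN1, HNRNPA0, HNRNPA3 and SRSF1, of 14 with a matched start. In 33 of the 98, a wild-type-only region lay within 1000 nt of the annotated gene end. A repeat of cytidine with N for any base, CNNCNNCNNCNN, has been associated with ac4C, and it was searched in the 50-base windows. On the transcribed strand it was found in 25 of 100 windows under knockdown-only regions (25%) and in 11 of 33 under wild-type-only regions (33.3%), against 32.3% of all 912 starts of switching genes and 25.7% of the 35116 starts of the table. On the other strand the shares were 45, 57.6, 48.1 and 34.8%. A window could hold it on both strands, and a match is a description of letters only.

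Switching genes held more regions than other genes of all lists, with medians of 13 and 11, and a gene with more regions can meet the rule in more ways. The share of switching genes was 14.4% with 1 to 5 regions, 15.2% with 6 to 10, 23.4% with 11 to 20, 38.6% with 21 to 40 and 60% of 25 genes with 41 or more. Median gene lengths were 37051 nt in switching genes and 44086 nt in the others. Most had few regions of each kind, with 1 knockdown-only region in 471 genes and 1 wild-type-only region in 387, and 94 genes had at least 2 of both. Knockdown-only regions had a median width of 150 nt (quartiles 75 and 300) and wild-type-only regions 175 nt (quartiles 100 and 300). Per library, the peaks in them had median widths of 100 and 125 nt in knockdown and of 100 and 125 nt in wild type.

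Gene groups were read against the 21.7% of all genes of all lists, with no test, and the lists were chosen with earlier results of these data known. Shares were not adjusted for the number of regions per gene. In lists with at least 10 genes, its median ran from 5 (nuclear-encoded oxidative phosphorylation) to 19 (chromatin remodellers), with 14 in histone chaperones. Histone chaperones, which escort histones onto and off DNA, had the highest share of the lists with at least 10 genes, with 8 of 15 (53.3%, 26.6 to 78.7%). They were ANP32A, CHAF1B, DEK, NCL, SET, SSRP1, UBN1 and UBN2. In DEK, the knockdown-only region chr6:18236494-18237067, minus strand, at percentiles 95.3 and 90.4, had a wild-type-only region 300 nt 5′ of it at 78.4 and 94.7, and 3 more near the gene end. Enzymes of histone acetylation and methylation gave 16 of 48 (33.3%). KDM5B, a histone H3 demethylase, had its knockdown-only region at chr1:202766917-202767066, minus strand, at 84.0 and 93.0, and its strongest wild-type-only region at chr1:202729870-202730044 at 98.6 and 91.6. Chromatin remodellers gave 10 of 35 (28.6%), of which 1 had the 5′ order, 5 the 3′ order and 4 were interleaved. HELLS, a remodeller needed for DNA methylation, held 1 knockdown-only region, at 74.3 and 73.5, among 5 wild-type-only regions. Of the histone genes, 1 of 6 switched, H2AZ1, with the knockdown-only region at its start at 98.2 and 10.9.

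Lists of the ribosome and of translation gave shares of 28.1 to 33.3%. Cytosolic ribosomal proteins gave 11 of 33 (33.3%, 18.0 to 51.8%), 7 with the 5′ order, 2 with the 3′ order and 2 interleaved. Translation initiation and elongation factors gave 11 of 38 (28.9%), among them EIF3C, a subunit of the initiation factor that binds the small ribosomal subunit, whose knockdown-only region, at percentiles 83.1 and 57.5, lay 153 nt before the annotated gene end and 3′ of 3 wild-type-only regions. Ribosome biogenesis genes gave 9 of 32 (28.1%). In GNL3, the nucleolar protein nucleostemin, the knockdown-only region chr3:52690742-52690816, plus strand, at 98.8 and 98.1, lay 25 nt 3′ of a wild-type-only region at 77.8 and 98.5. DEAD and DEAH box helicases, DDX5 and DDX3X among them, gave 5 of 28 (17.9%), below the background.

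Splicing proteins gave 16 of 55 (29.1%), and HNRNPA3, an hnRNP protein, held a wild-type-only region at 99.5 and 95.5 of the wild-type lists between knockdown-only regions, the strongest at 88.0 and 88.9 of the knockdown lists. Chaperones and cochaperones gave 10 of 34 (29.4%), with 7 of the 10 interleaved. ST13, which works with Hsp70, had 2 knockdown-only regions, at 98.2 and 99.2 and at 98.5 and 99.1, between a wild-type-only region at the annotated gene start and 1 near the end. Proteasome and ubiquitin enzymes gave 18 of 69 (26.1%), and in PSMD4, the ubiquitin receptor of the proteasome, the knockdown-only region lay 25 nt after the gene start, at 78.7 and 94.3, and 3 wild-type-only regions lay 11487 nt or more 3′ of it. RNA modification enzymes and readers gave 4 of 16 (25%), ALKBH5, DKC1, IGF2BP1 and RBM15B, of which 3 had the 3′ order.

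Cell cycle and replication genes gave 16 of 55 (29.1%), 12 with the 5′ order, 1 with the 3′ order and 3 interleaved. RAD21 and SMC3, subunits of the same cohesin ring, both had the 5′ order. In SMC3, 2 knockdown-only regions, the first 775 nt after the gene start at 76.0 and 74.3, lay 5′ of a wild-type-only region at 79.2 and 99.0. Cytoskeletal and centrosomal genes gave 20 of 58 (34.5%), and nuclear pore and transport genes 9 of 30 (30%), 6 with the 5′ and 3 with the 3′ order, as in RAN. Pluripotency genes gave 7 of 24 (29.2%), FGFR1, JARID2, PODXL, SALL2, TERF1, THY1 and ZSCAN10. TERF1, which binds telomeric repeats, had 2 knockdown-only regions, the stronger at 75.2 and 97.3, among 6 wild-type-only regions, the strongest at 99.6 and 88.2. TGF-beta, FGF, WNT and insulin signalling gave 8 of 25 (32%). In ACVR2B, an activin receptor, the knockdown-only region, at 40.8 and 74.3, lay among 4 wild-type-only ones.

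Metabolic, matrix and zinc finger genes lay on both sides of the background. Glycolysis genes gave 4 of 12 (33.3%), ALDOA, ENO2, GPI and SLC2A3. Zinc finger proteins gave 12 of 73 (16.4%), ZNF207 among them. Adhesion and matrix genes gave 3 of 25 (12%), and in CTNNA1, the adhesion protein alpha-catenin, 113021 nt separated the knockdown-only regions, the stronger at 96.6 and 91.6, from 4 wild-type-only regions near the gene end. Nuclear-encoded oxidative phosphorylation genes gave 2 of 30 (6.67%, 0.818 to 22.1%), NDUFA10 and NDUFV3. Their list had a median of 5 regions per gene, against 13 in switching genes and 11 in other genes of all lists. Neither of the 2 mitochondrial-DNA encoded genes of all lists switched.

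**Figure D5:**
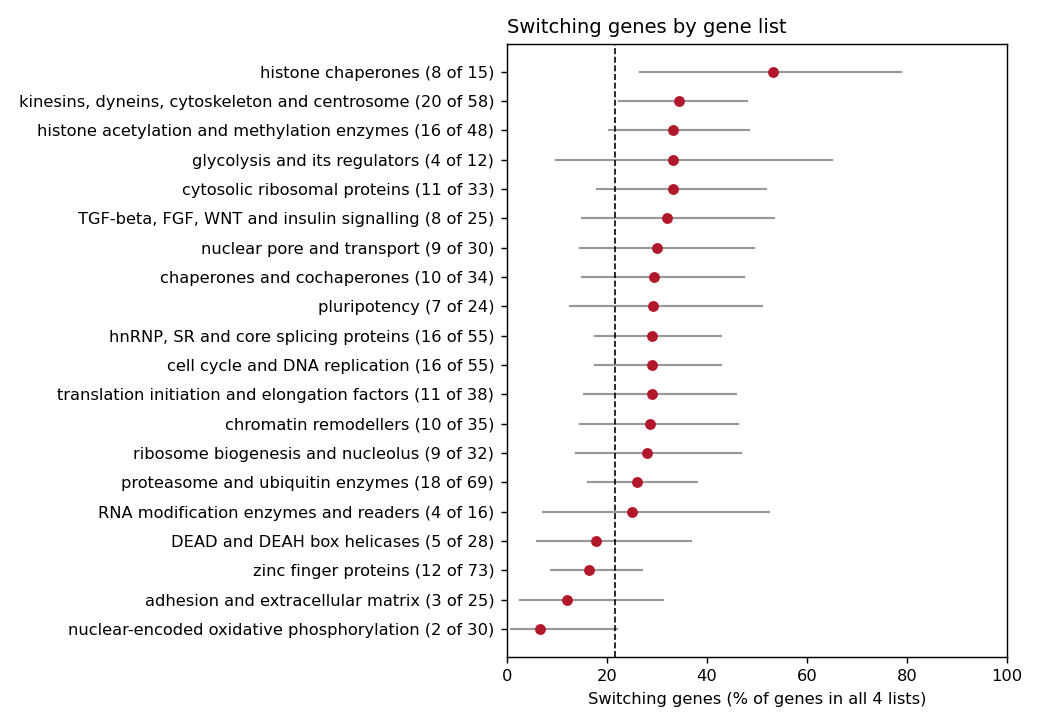
Share of genes of all 4 lists that switched, for the 20 gene lists with at least 10 such genes, with the number of switching genes and of genes in all lists beside each name. Points are the shares, horizontal lines exact 95% intervals that cover counting error only, and the dashed line the 21.7% of all genes of all lists. Histone chaperones lie highest, at 53.3%, and nuclear-encoded oxidative phosphorylation lowest, at 6.67%.

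Of the 10 genes with most regions of both kinds, 7 were interleaved, and PRRC2A, IGF2BP1 and CBX5 held the kinds apart. SNHG14, the long noncoding host transcript of the imprinted SNRPN region, appeared under 2 overlapping gene identifiers, each counted as a gene among the 695. Under 1 of them it held 6 knockdown-only and 20 wild-type-only regions, with 36 and 50 peaks in the knockdown lists and 85 and 83 in the wild-type lists. PRRC2A, an RNA-binding protein, had 5 wild-type-only regions, from 17.9 to 63.4% of the gene, and 7 knockdown-only regions after them with no overlap. The strongest knockdown-only one lay at chr6:31635381-31635480, plus strand, at percentiles 92.2 and 99.0. PRRC2A carried 17 and 11 peaks in the knockdown lists and 14 and 13 in the wild-type lists. IGF2BP1, a reader of modified messenger RNA, likewise had 5 wild-type-only regions followed by 3 knockdown-only ones that ended at most 906 nt before the gene end.

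CBX5, the heterochromatin protein HP1 alpha, ran in the opposite order. Its 2 knockdown-only regions, the stronger at chr12:54257514-54258089, minus strand, at percentiles 97.2 and 99.8, lay 5′ of 7 wild-type-only regions, and its peaks numbered 9 and 9 in the knockdown lists and 31 and 19 in the wild-type lists. HSP90AA1, a cytosolic Hsp90 chaperone, held 4 regions of each kind in interleaved order, with 5 and 4 peaks in the knockdown lists and 5 and 4 in the wild-type lists. Of its 9 regions, 8 were genotype-only. ARID1B and CHD8, both chromatin remodellers, DCTN1 of the dynactin complex, the growth factor receptor FGFR1 and the cytolinker PLEC were interleaved, with 2 or 3 knockdown-only and 3 to 7 wild-type-only regions each.

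Each peak in a list carries a number, and some numbers are absent. The numbers ran along the genes from 5′ to 3′, so a number absent at a region's place may stand for a peak that was numbered but not listed, in that gene or next to it, which was not tested. No number was missing in either lacking list for 600 of the 1024 knockdown-only regions (58.6%) and 605 of the 1281 wild-type-only regions (47.2%). Numbers were missing in both lacking lists for 220 (21.5%) and 356 (27.8%) of them. In 36 of the 2305 regions over 100 numbers seemed missing, and these were counted as missing. The gene may have stood out of order in the numbering there, which was not tested. A peak over 1000 nt in a lacking list covered 96 knockdown-only (9.38%) and 120 wild-type-only regions (9.37%). In both wild-type lists, such a peak covered every knockdown-only region of CAPRIN1, GNL3, DEK, CTNNA1, CHD8 and SMC3. It also covered the only knockdown-only region of SNHG14 under 1 of its identifiers. In wild type 2 alone, such a peak covered the knockdown-only regions of ZNF207 and HELLS. In both knockdown lists, it covered the wild-type-only region of ST13 at the gene start and the first and second of ZNF207. There it also covered the first wild-type-only region of DEK and of CBX5 and that of NDUFA10. These regions count as genotype-only because longer peaks were set aside.

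With absence accepted only where no number was missing, 248 genes switched (7.76% of 3196), 132 with the 5′ order and 76 with the 3′ order. ZNF207, DEK, SMC3 and GPI had no missing number at any of their regions, whereas RAN, RPS2, DDX5 and DDX3X had some. Peaks set aside as too long gave another picture. In both wild-type lists they covered every knockdown-only region of DEK and SMC3, and in a wild-type list that of ZNF207. In both knockdown lists they covered the first wild-type-only region of DEK and the first and second of ZNF207. Absence at these regions therefore rests on the width limit. No such peak of a lacking list covered a region of GPI, RAN, RPS2, DDX5 or DDX3X. Further genes without missing numbers and with high pair scores were NPEPPS, an aminopeptidase, and TBCD. In NPEPPS, the knockdown-only region chr17:47586352-47586401, plus strand, at percentiles 82.1 and 80.6, lay 5′ of wild-type-only regions at 82.7 and 92.1 and at 75.7 and 90.4. In TBCD the kinds alternated along the gene, from the wild-type-only region at the start, at 70.2 and 69.9, to a knockdown-only region near the end, at 32.1 and 37.9. The other knockdown-only region of TBCD lay under a peak set aside as too long in both wild-type lists.

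Whether such regions recur was asked, within the 3196 genes with a peak in all 4 lists, in lists not used to choose the regions. The held-out lists did enter the choice of genes, each of which had a peak somewhere in every list. The shares below hold only under that condition. Of regions with a peak in 1 knockdown list and none in 1 wild-type list, 26.3 to 32.2% had a peak in the other knockdown list and 14.8 to 17.0% in the other wild-type list, over the 4 choices of lists. For regions chosen the opposite way, 9.50 to 12.3% had a peak in the other knockdown list and 27.3 to 28.5% in the other wild-type list. With lists of the same replicate number, the mean excess of the list of the choosing genotype was 15.1 points (SD 3.50 over 4 choices that share lists), and with lists of different numbers 15.2 points. Most regions chosen from a single pair of lists were therefore absent from the second list of the same genotype.

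The limit of 1000 nt moved the number of switching genes, from 695 of 3196 with it to 781 of 3319 with a limit of 2000 nt and 947 of 3553 with none. Just inside lay a wild-type-only peak of 1000 nt, chr19:34396301-34397300, in GPI, the glycolytic enzyme glucose-6-phosphate isomerase. GPI had another wild-type-only region of 100 nt, so its switching did not rest on this peak. In TRA2B, a splicing regulator, peaks of 998 nt in both wild-type lists also lay inside. Just outside lay peaks of 1001 nt in ECHDC1 (knockdown) and PSMD2 (wild type) and of 1003 nt in TUBGCP2 (knockdown), which were set aside. PSMD2 and TUBGCP2 were still among the switching genes. Without a limit on width, 541 of the 947 genes had the 5′ order and 189 the 3′ order.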

How the data were processed

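Immunoprecipitation, input and IgG libraries were made from NAT10-knockdown and wild-type H1 cells, and the 4 peak lists of the immunoprecipitation libraries were analysed. The build was hg38 and the tools HISAT2 2.2.1, bedtools 2.30.0, fastp 0.21.1 and SAMtools 1.12, per the submitters' processing notes. How peaks were called, and against which control, is not given in the sources used here. The deposited lists give each peak a position, strand, gene, number and score. The meaning of the score is not stated by the authors, and it was at least 10 in each list, so it served only to rank peaks within a list. Read depth is unknown. Nothing in the labels says that the 2 libraries of a genotype came from separate cultures, so a p-value here speaks only of the spread among these samples, possibly technical.

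Peaks of at most 1000 nt were merged where they shared 1 nt, per gene identifier and strand. Where values did not come from regions shared by both lists of a genotype, a single value per library entered a two-sided exact permutation test with 6 possible arrangements, and intervals on shares are exact (Clopper-Pearson, 95%). The base composition of whole regions was not compared, since no genome of the build was used here. Cytidine and motif shares were described only for RefSeq start windows, with no test. Gene positions and starts came from RefSeq (GRCh38.p14), matched by symbol or synonym and overlap, for 693 of 695 switching genes. The steps were tested on simulated lists with planted switching genes (Python 3.11.15, pandas 2.3.3, NumPy 2.4.6, SciPy 1.17.1). Sharing of replicate numbers was checked by regions that recurred in held-out lists and gave no pairing.

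The members, the 22 gene lists and the rules were chosen with earlier results of these data known. Genes were named if they were NAT10, among the 10 with most regions of both kinds, the 10 with the highest pair score, the highest of each gene list, the 5 highest with 1 region of each kind, the 5 highest with no missing number, or next to the width limit, and 1 gene that the rule names is not reported here. Alternatives varied the width limit, the overlap, the score, longer peaks, missing numbers, the libraries and the position scale.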

Additional observations from a re-analysis of the deposited data

How the results depend on the processing

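No result was reversed under any alternative that was run, and of 104 values 53 were counted as the same and 51 as moved. Every position difference was counted as the same, although they ran from -5.64 to -44.6 points against -20.2. The count of 53 therefore does not mean that those values stayed close in size. With peaks up to 500 nt, up to 2000 nt and of any width, the share of switching genes was 20.2, 23.5 and 26.7%. Any width also gave 1967 wild-type-only regions, the 3′ order in 19.96% of genes and 35.1% of pairs. Merging peaks up to 200 nt apart gave a share of 16.1%, 655 knockdown-only and 841 wild-type-only regions and a median distance of 8747 nt. Counting longer peaks as presence gave 18.2%. The upper 50% of each list by score gave 241 genes (13.6%), 315 knockdown-only and 381 wild-type-only regions, and the 3′ order in 22.8% of genes and 35.2% of pairs. Without missing numbers, 248 genes (7.76%) held 326 knockdown-only and 383 wild-type-only regions, with the 3′ order in 30.6% of genes and 35.5% of pairs and a distance of 5798.5 nt. With 1 region of each kind, the 3′ order took 39.7%. The lower width limit, the upper 50% and the rule on missing numbers admit fewer peaks or regions and the wider limits more, by construction, and the cause of the other changes was not tested.

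Leaving out each library in turn gave 1688 to 2035 switching genes (46.8 to 50.6%), 2666 to 5839 knockdown-only and 3668 to 6942 wild-type-only regions, the 3′ order in 18.1 to 23.9% of genes and 39.2 to 46.9% of pairs, distances of 1735 to 2125 nt and position differences of -7.78 to -23.4 points. With the replicate number as a block, the position difference was -20.2 points, again with no test, since these values came from regions shared by both lists of a genotype. The position difference was negative in all settings, from -5.64 points over all peaks of switching genes to -44.6 in the upper 50% of each list, with -14.3 on the annotated gene and -9.01 without missing numbers. The 2 libraries per group, the unknown depth and the inputs not used here limit every comparison.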
